A study of Mus musculus with 12 samples.

Results

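The peroxisome proliferator-activated receptors (PPARs), their partner RXRα, the PGC-1 coactivators, the orphan receptor ERRα and a pair of genes at the output of the pathway were followed in RNA from 12 subcutaneous mouse sarcomas. The set was chosen by gene symbol and holds 9 genes, of which 8 had a probeset with 1 gene symbol (Ppara, Ppard, Pparg, Rxra, Ppargc1a, Ppargc1b, Esrra and Angptl4) and Ucp2 was not analysed here. These 8 were among 19938 measured genes, and all 8 were among the 16573 that passed a filter on low values. Where a gene had several probesets, the one with the highest mean stood for it.

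All tumors came from J2A, 1 line of myofibroblasts derived from the aorta of C57BL/6 mice deficient for p16, p19 and Vnn1. All cells carried a retroviral vector with oncogenic H-Ras fused to GFP, placed behind an internal ribosome entry site. R tumors (n = 4) had this vector without Vnn1, VR tumors (n = 4) also expressed intact Vnn1 from its cytomegalovirus promoter, and VdR tumors (n = 4) expressed from the same promoter a Vnn1 without pantetheinase activity. Vnn1 is the pantetheinase that splits pantetheine into pantothenate, the vitamin from which coenzyme A is made, and cysteamine. The cells grew under the skin of female nude mice on a normal diet. For all 3 groups the labels put the harvest at 2 to 3 weeks. The paper reports poor growth of VR cells in these mice and aggressive tumors from R and VdR cells. Nude mice have no functional thymus and few T cells, but keep macrophages and natural killer cells. The age of the hosts was not given in the sources used here. Within a group it was the graft that was repeated, with 1 line and no further transduction described, so p-values measure the spread between tumors.

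PPARα, PPARδ and PPARγ are nuclear receptors that bind fatty acids and their derivatives. Each pairs with RXRα on a direct repeat of the letters AGGTCA spaced by 1 base, and switches on genes of fatty acid uptake, storage and oxidation. PGC-1α and PGC-1β bind these receptors and ERRα as coactivators and raise mitochondrial gene expression. ANGPTL4 is a secreted inhibitor of lipoprotein lipase whose gene is known both as a target of the PPARs and as a gene induced by low oxygen. UCP2 is a carrier of the inner mitochondrial membrane.

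The reference promoters of the genes show where these letters lie. Windows from 250 bases before to 50 after each RefSeq transcription start (GRCm38.p6) were searched on both strands, and 7 of the 9 genes had an entry, with 10 windows. The repeat of AGGTCA with 1 base of any kind in between was in 0 of these 10 windows, in 0 of the 30 windows of the PPAR target genes described further on, and in 13 (0.0396%) of 32851 windows in all. The single core AGGTCA was in 3 of the 10 windows (30%), which belong to Rxra and Pparg, against 16.3% of all windows. It was in 8 of the 30 windows of target genes (26.7%). A match is a description of the letters and not of binding. The exact repeat is so rare, at 0.0396% of all windows, that 0 was the likely count in sets this small. These counts of 0 therefore do not show that the genes lack an element bound by PPARs. The cores of the receptor genes, and of the target genes Cd36, Acadvl and Cpt1a whose values follow, are shown with 12 bases on each side and the core in capitals, 5′ to 3′ on the strand given.
Rxra, chr2:27709193-27709222, minus strand: tgaccattactcAGGTCAcacccatttcta
Rxra, chr2:27709232-27709261, plus strand: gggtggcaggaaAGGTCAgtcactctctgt
Pparg, chr6:115361104-115361133, plus strand: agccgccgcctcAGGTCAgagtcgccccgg
Pparg, chr6:115362328-115362357, plus strand: agggacgcgaggAGGTCAagaaggggcctg
Cd36, chr5:17836107-17836136, plus strand: cctgaaaatctcAGGTCAtaaagtgcagag
Acadvl, chr11:70015498-70015527, minus strand: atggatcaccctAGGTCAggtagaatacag
Cpt1a, chr19:3323195-3323224, minus strand: gctgcggggaggAGGTCAgtaaggaaactg

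Ppargc1a was the 1 gene of the set that was called in a comparison, and its promoter is therefore shown whole. In its window, chr5:51567676-51567975 on the minus strand, the capitals mark CACGTCA. There TGACG, the core of the cyclic AMP response element, and ACGTG, a core bound by hypoxia-inducible factors, overlap, both read on the other strand.
Ppargc1a: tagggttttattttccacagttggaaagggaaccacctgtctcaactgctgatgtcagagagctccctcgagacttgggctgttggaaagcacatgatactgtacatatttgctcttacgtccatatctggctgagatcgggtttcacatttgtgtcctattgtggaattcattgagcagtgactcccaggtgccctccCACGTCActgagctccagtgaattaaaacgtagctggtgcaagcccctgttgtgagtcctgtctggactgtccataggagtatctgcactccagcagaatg
TGACG was in 20.8% and ACGTG in 19.6% of all windows of this length, and in 4 and 2 of the 10 windows of the set. The full element TGACGTCA was in 0 of the 10 windows and in 1.79% of all windows. The ERRα element TCAAGGTCA was in 0 of the 10 windows and in 0.423% of all windows.

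The values are log2 expression from 1 microarray per tumor, normalized over all 12 arrays. The median of an array lay between 6.66 and 6.77, and arrays of a group correlated at 0.9879 to 0.9957 across genes, which are not independent replicates. Vnn1 read 5.70 ± 0.13 (SD, n = 4) in R tumors, against 11.56 ± 0.16 in the VdR group and 10.87 ± 0.34 in the VR group, so it was high in both groups transduced with it, and the array does not tell its intact from its deficient form. Groups were compared with limma over all 12 tumors, and a gene was called at a Benjamini-Hochberg adjusted p under 0.05. Over all genes tested 21.1% were called in VR versus R (13.6% higher and 7.48% lower), 9.38% in VdR versus R (6.58% and 2.81%) and 3.44% in VR versus VdR (1.77% and 1.67%). The first 2 comparisons share the R tumors and are not independent. The summed level of 19 macrophage markers, as the mean of their log2 values, was 9.13 to 9.48 in R tumors, against 10.22 to 10.48 in the VdR group and 10.10 to 10.33 in the VR group, with 16 of 19 called higher in VR versus R and 18 of 19 in VdR versus R. The mean of 14 hypoxia-induced genes was 9.05 to 10.26 in R tumors, against 8.65 to 9.49 in the VdR group and 8.48 to 8.71 in the VR group. The mean of 9 myofibroblast markers was 10.66 to 11.31 in R tumors, against 10.91 to 11.17 in the VdR group and 11.15 to 11.39 in the VR group, with 4 of 9 called higher in VR versus R. That of 9 skeletal muscle markers was 6.86 to 8.95, 6.78 to 9.10 and 6.74 to 8.28 in the same order of groups, with 0 of 9 called in any comparison. The part of these cells and genes in the results that follow was not tested. In bulk RNA, fewer cells of a type and less RNA per cell cannot be told apart.

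The receptors, coactivators and partner differed little between the groups. Of the 8 genes, 1 was called in VR versus R (12.5%, beside 21.1% of all genes), and this was Ppargc1a, lower in VR tumors. Ppara and Ppargc1a were the 2 of 8 whose VR and R tumors did not overlap, as for 25.8% of all genes tested. No gene of the set was called in VdR versus R or in VR versus VdR, beside 9.38% and 3.44% of all genes. At an unadjusted limma p under 0.05 there were 2 of 8 in VdR versus R (Ppard and Rxra), beside 23.1% of all genes, and 0 of 8 in VR versus VdR, beside 19.2%. In VR versus R there were 2 of 8 (Ppargc1a and Angptl4), beside 34.8%. For 7 of the 8 genes the 95% interval of the difference lay within 1.5-fold in all 3 comparisons, the exception being Angptl4. The median difference of the 8 genes in VR versus R was 0.00261 on the log2 scale, beside -0.0147 over all genes tested.

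**Figure D1:**
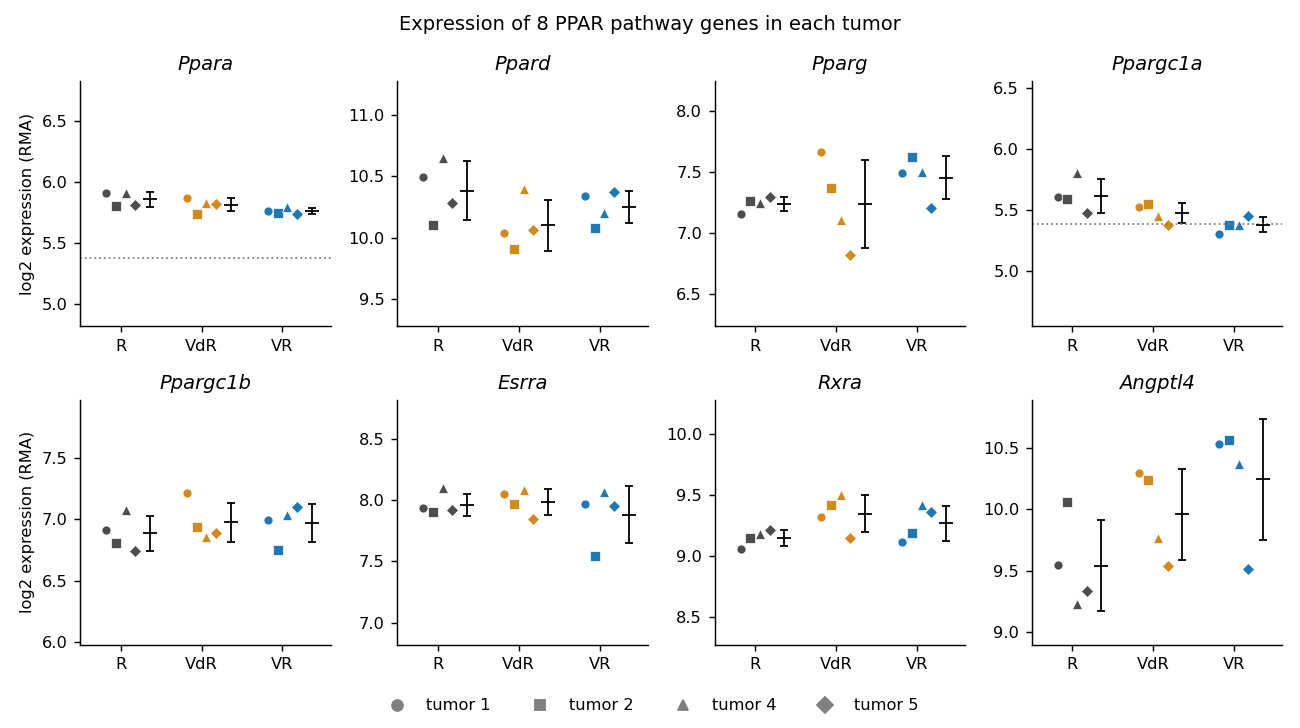
Log2 expression of the 8 genes in each tumor of the R, VdR and VR groups, with 1 marker shape per tumor number and the mean with its SD (n = 4) beside the points. Each panel spans the same width of the log2 axis, and the dotted line at 5.382 is the low value used in the filter. In Ppargc1a the 4 R tumors lie above the 4 VR tumors, and in Angptl4 1 VR tumor lies apart from the other 3.

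Levels of different probesets are not on a common scale and are not compared here. Among the receptors, Ppara, the receptor best known from oxidative tissue such as liver, read 5.91, 5.80, 5.91 and 5.81 in R tumors 1, 2, 4 and 5, 5.87, 5.74, 5.83 and 5.82 in VdR tumors, and 5.76, 5.75, 5.79 and 5.74 in VR tumors. All values were a little above the low value of 5.382 and the 4 VR tumors were below the 4 R tumors. The difference between VR and R tumors was -0.096 ± 0.049 (SE) on the log2 scale, or 0.936-fold with a 95% interval of 0.869 to 1.01, and it did not pass (limma adjusted p = 0.181).

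Ppard, the most widely expressed PPAR, read 10.49, 10.10, 10.65 and 10.28 in R tumors, against 10.04, 9.91, 10.39 and 10.06 in the VdR group and 10.34, 10.08, 10.20 and 10.37 in the VR group. The groups overlapped, and VdR tumor 4 lay among the R tumors. VdR tumors differed from R tumors by -0.28 ± 0.13 (95% interval -0.56 to -0.0073, limma adjusted p = 0.203). The difference between VR and R was -0.13 ± 0.13 (adjusted p = 0.470).

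Pparg, the regulator of fat cell differentiation that macrophages also express, read 7.16, 7.26, 7.25 and 7.29 in R tumors, against 7.66, 7.37, 7.10 and 6.82 in the VdR group and 7.49, 7.62, 7.50 and 7.21 in the VR group. The R tumors lay within a narrow band, with an SD of 0.057, while the VdR tumors spread around the same mean with an SD of 0.36. VR tumors differed from R tumors by 0.21 ± 0.15 (95% interval -0.10 to 0.53, adjusted p = 0.312), with 3 of 4 VR tumors above every R tumor. The mean of 8 adipocyte markers ran from 6.48 to 7.40, with VdR tumors 1 and 2 and VR tumor 1 the highest at 7.28, 7.30 and 7.40, and 0 of the 8 was called in any comparison.

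Rxra, the shared partner of the PPARs, read 9.06, 9.15, 9.18 and 9.21 in R tumors, against 9.32, 9.42, 9.50 and 9.15 in the VdR group and 9.11, 9.19, 9.42 and 9.36 in the VR group. In VdR, 3 of 4 tumors lay above every R tumor. The difference was 0.19 ± 0.085 in VdR versus R (95% interval 0.0090 to 0.38, adjusted p = 0.193) and 0.12 ± 0.085 in VR versus R (adjusted p = 0.344).

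The other receptors that pair with RXR, together with related orphan receptors, gave 4 calls among 13 tested in VR versus R (30.8%, beside 21.1% of all genes), 1 higher and 3 lower, with a median difference of -0.109. In VdR versus R 1 of 13 was called (7.69%, beside 9.38% of all genes), and in VR versus VdR 0 of 13 (beside 3.44%). Thrb, a thyroid hormone receptor, read 5.68, 5.69, 5.79 and 5.61 in R tumors, against 6.06, 5.98, 5.96 and 5.90 in the VdR group and 5.92, 6.00, 6.08 and 6.05 in the VR group. It was above every R tumor in all 8 others and rose by 0.32 in VR (adjusted p = 0.00234) and 0.28 in VdR (adjusted p = 0.00891). The retinoic acid receptor Rarg fell by 0.38 (adjusted p = 0.00416) and the vitamin D receptor Vdr by 0.61 (adjusted p = 0.0128) in VR versus R. Rarb, a receptor whose own gene is induced by retinoic acid, fell by 0.80 (adjusted p = 0.0453), a call lost without any R tumor, VdR tumor 2 or 5, or VR tumor 1 or 2, with its difference between -0.95 and -0.57. The uncalled receptors with the largest differences were Esrrb at -0.19 (adjusted p = 0.138) and Thra at 0.18 (adjusted p = 0.193).

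**Figure D2:**
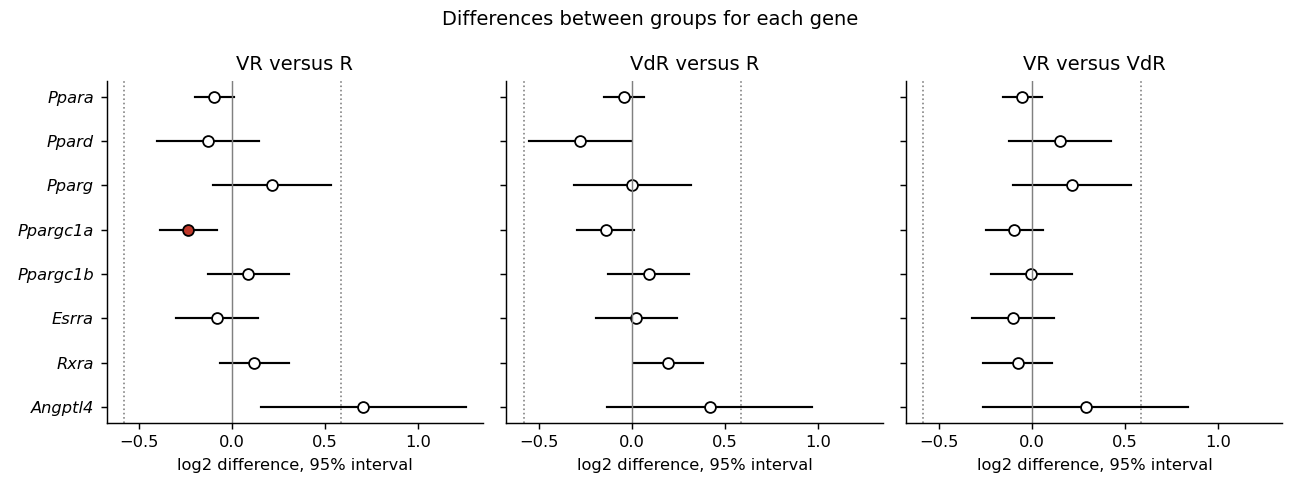
Log2 difference with its 95% interval for the 8 genes in VR versus R, VdR versus R and VR versus VdR, a filled point being a call by limma and the dotted lines 1.5-fold in either direction. The interval lies inside the dotted lines for 7 of 8 genes in each comparison, and Angptl4 reaches beyond them.

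Ppargc1a, which encodes PGC-1α, was close to the low end of the array. It read 5.61, 5.59, 5.80 and 5.47 in R tumors, against 5.53, 5.55, 5.45 and 5.38 in the VdR group and 5.30, 5.37, 5.38 and 5.45 in the VR group. The 4 R tumors lay above the 4 VR tumors and the VdR tumors overlapped both. The difference in VR versus R was -0.24 ± 0.071, or 0.848-fold with a 95% interval of 0.762 to 0.943 (limma adjusted p = 0.0312). Permuting the 8 tumors of these groups exactly gave a two-sided p of 0.0286, the smallest that 4 against 4 allows. Any gene whose groups do not overlap gets this value, Ppara among them, so it adds nothing to the separation already described.

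The call depended on single tumors. Ppargc1a was above the low value in 4 R, 3 VdR and 1 VR tumors and the filter asked for 4 tumors of any group. A second probeset of the gene read 4.58 to 4.90 in all 12 tumors. Leaving out R tumor 1 or 4, or VR tumor 1, 2 or 4, ended the call (adjusted p 0.0632, 0.0845, 0.0803, 0.0667 and 0.0662), while its difference stayed between -0.29 and -0.18. VdR tumors differed from R by -0.14 ± 0.071 (adjusted p = 0.258) and VR from VdR by -0.097 ± 0.071 (adjusted p = 0.504).

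Ppargc1b, encoding PGC-1β, read 6.91, 6.81, 7.08 and 6.74 in R tumors, against 7.21, 6.94, 6.86 and 6.89 in the VdR group and 6.99, 6.75, 7.04 and 7.10 in the VR group. The groups overlapped, and its difference was 0.086 ± 0.10 in VR versus R (95% interval 0.912 to 1.23 as a fold, adjusted p = 0.559). VdR tumors differed from R by 0.090 ± 0.10 (adjusted p = 0.656).

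Esrra, encoding the orphan receptor through which PGC-1 proteins act on many mitochondrial genes, read 7.94, 7.90, 8.10 and 7.92 in R tumors, against 8.05, 7.96, 8.08 and 7.85 in the VdR group and 7.96, 7.55, 8.06 and 7.95 in the VR group. VR tumor 2 was the lowest of the 12, and the other 11 lay within the range of 7.85 to 8.10. The difference was -0.081 ± 0.10 in VR versus R (0.812 to 1.10 as a fold, adjusted p = 0.586), and without VR tumor 2 it was 0.031.

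Of 17 other coactivators and corepressors, 5 were called in VR versus R (29.4%, beside 21.1% of all genes). Of these, 4 were higher and 1 lower, and the median difference of the list was 0.0554. Ncoa3 and Ncoa1, p160 coactivators of nuclear receptors, both rose by 0.40 (adjusted p = 0.00246 and 0.0121). Crebbp, the acetyltransferase CBP, rose by 0.31 (adjusted p = 0.00901). Ncoa2, the remaining p160 member, rose by 0.20 (adjusted p = 0.0335), a call lost without R tumor 1, 2 or 4 or VR tumor 1, 4 or 5, with its difference between 0.17 and 0.24. Prdm16, a partner of PGC-1α in brown fat, fell by 0.39 (adjusted p = 0.0122). In VdR versus R, 2 of 17 were called (11.8%, beside 9.38% of all genes). Ncoa3 was higher by 0.32 (adjusted p = 0.0142) and Prdm16 lower by 0.39 (adjusted p = 0.0242), the second lost without R tumor 4 or VdR tumor 1 or 2. In VR versus VdR 2 of 17 were called (11.8%, beside 3.44% of all genes), Crebbp higher by 0.30 (adjusted p = 0.040) and Ncoa2 by 0.26 (adjusted p = 0.0403). The count was 1 without R tumor 2 and 0 without R tumor 1, VdR tumor 1, 4 or 5 or any VR tumor. The uncalled genes with the largest differences in VR versus R were the corepressor Nrip1 at -0.20 (adjusted p = 0.0846) and Tbl1xr1 at 0.14 (adjusted p = 0.180).

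At the output of the pathway, Angptl4 had the widest spread of the set. It read 9.54, 10.06, 9.23 and 9.33 in R tumors, against 10.29, 10.24, 9.76 and 9.53 in the VdR group and 10.53, 10.56, 10.37 and 9.52 in the VR group. VR tumors 1, 2 and 4 were above every R and VdR tumor, VR tumor 5 lay among the R tumors, and R tumor 2 lay above the other R tumors. The difference in VR versus R was 0.70 ± 0.25, or 1.63-fold with a 95% interval of 1.11 to 2.39, and it did not pass (limma adjusted p = 0.0679; exact permutation p = 0.0857). It passed without R tumor 2 (adjusted p = 0.0303) or VR tumor 5 (adjusted p = 0.0109), with differences of 0.60 to 0.95 over all tumors left out in turn. VdR tumors differed from R by 0.42 ± 0.25 (adjusted p = 0.364) and VR from VdR by 0.29 ± 0.25 (adjusted p = 0.590).

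Genes induced by low oxygen, the other class Angptl4 belongs to, were lower in VR tumors. Of 14 tested, 12 were called lower in VR versus R (85.7%, beside 7.48% of all genes) and 0 higher. The median difference was -1.39, with all 14 below 0. Ero1a, an oxidase of the endoplasmic reticulum, fell by 1.61 (adjusted p = 0.0014), the glucose transporter Slc2a1 by 1.5 (adjusted p = 0.00273), Ankrd37 by 1.40 (adjusted p = 0.00126) and the histone demethylase Kdm3a by 0.64 (adjusted p = 0.00265). Higd1a and Pfkfb3 were at -0.15 and -0.08 and were not called (adjusted p = 0.278 and 0.752). In VdR versus R 5 of the 14 were called lower (35.7%, beside 2.81% of all genes). Among them, Kdm3a fell by 0.68 (adjusted p = 0.00356), Ankrd37 by 1.2 (adjusted p = 0.00534), Ero1a by 0.94 and Slc2a1 by 0.99 (adjusted p = 0.0417 for both). Kdm3a and Ankrd37 stayed called with any 1 tumor left out, and the count moved with single tumors. It was 3 without R tumor 2, 9 without VdR tumor 4, 12 without R tumor 5 and 2 without any other single tumor. The median there was -0.952. In VR versus VdR 0 was called and the median was -0.428.

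**Figure D3:**
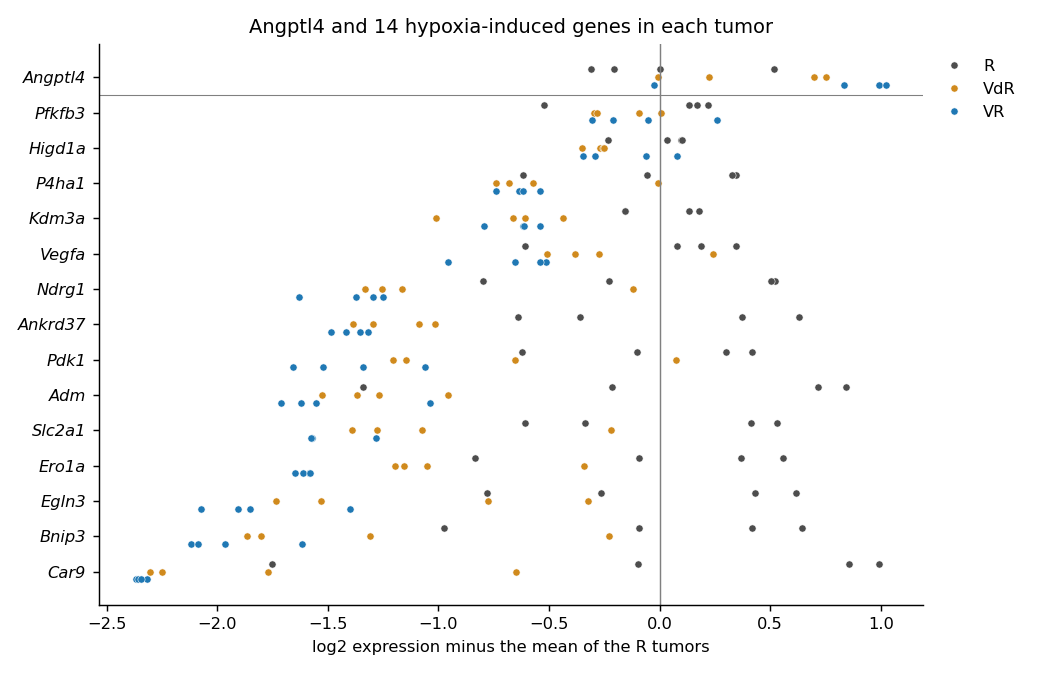
Log2 expression of Angptl4 and of 14 hypoxia-induced genes in each tumor, minus the mean of the 4 R tumors, with 1 point per tumor colored by group. Angptl4 lies to the right of 0 in 3 of 4 VR tumors, whereas 12 of the 14 hypoxia-induced genes have all 4 VR tumors to the left of 0.

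Relatives and partners of ANGPTL4 were also measured, and 4 of 9 tested were called in VR versus R (44.4%, beside 21.1% of all genes), all higher. Lpl, the lipoprotein lipase that ANGPTL4 inhibits, read 7.24, 7.27, 6.83 and 7.72 in R tumors, against 8.24, 8.72, 7.47 and 7.12 in the VdR group and 8.49, 8.91, 8.61 and 8.78 in the VR group. The 4 VR tumors lay above all R tumors, and the VdR tumors split into 2 that reached beyond the R tumors and 2 that did not. Lpl rose by 1.43 in VR versus R (adjusted p = 0.00499). Angptl7, a secreted relative, rose by 0.98 (adjusted p = 0.00149) and Sel1l, needed for lipase maturation, by 0.32 (adjusted p = 0.00518). Angptl1 rose by 0.48 (adjusted p = 0.0312), a call lost without R tumor 1, 2 or 4 or VR tumor 2, 4 or 5, with its difference between 0.39 and 0.61. In VdR versus R 1 of 9 was called (11.1%, beside 9.38% of all genes), which was Angptl7, higher by 0.63 (adjusted p = 0.0294). This call was lost without R tumor 1, 2 or 4 or VdR tumor 2 or 4, and 2 genes of the list were called without VdR tumor 5. Gpihbp1, which anchors lipoprotein lipase on capillaries, and Angptl6 were at -0.17 and -0.14 in VR versus R without a call (adjusted p = 0.659 and 0.133).

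Target genes of the PPARs other than Angptl4 were then examined. Of 27 tested, 10 were called in VR versus R (37%), 9 higher and 1 lower, with a median of 0.213, beside 13.6% higher and 7.48% lower over all genes. Lpl is in this list and among the partners of ANGPTL4 above, so its call counts in both. The carnitine-acylcarnitine carrier Slc25a20 rose by 0.51 (adjusted p = 8.64e-04), the dienoyl-CoA reductase Decr1 by 0.39 (adjusted p = 0.00158), and both chains of the trifunctional enzyme of β-oxidation, Hadhb by 0.47 and Hadha by 0.32. Acadvl, the acyl-CoA dehydrogenase of very long chains, rose by 0.30 and the peroxisomal enzyme Ehhadh by 0.31. Fabp3, a fatty acid binding protein of muscle, fell by 0.28 (adjusted p = 0.0166), a call lost without R tumor 4. Acot2, a mitochondrial thioesterase, stood at 0.85 and Fabp4 at 0.36, both without a call (adjusted p = 0.0577 and 0.419). Acot2 passed without R tumor 2 (adjusted p = 0.0466), VdR tumor 1 (0.0484) or VdR tumor 4 (0.00785).

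The largest difference of the list was that of Cd36, which acts in uptake. Cd36, the fatty acid translocase that macrophages, endothelium and fat cells share, read 6.10, 7.76, 5.78 and 7.00 in R tumors, against 9.07, 8.89, 6.93 and 6.72 in the VdR group and 8.98, 9.07, 8.57 and 8.05 in the VR group. All 4 VR tumors were above all R tumors, and VdR tumors 1 and 2 stood apart from VdR tumors 4 and 5, as for Lpl. In the same order of VdR tumors 1, 2, 4 and 5 the macrophage markers had means of 10.28, 10.41, 10.48 and 10.22 and the adipocyte markers 7.28, 7.30, 6.52 and 6.48. In VR tumors 1, 2, 4 and 5 the adipocyte markers had means of 7.40, 6.53, 6.68 and 6.60. Endothelial markers read 8.55 to 9.15 in R tumors, against 8.70 to 8.998 in the VdR group and 9.03 to 9.38 in the VR group. The part of these cell types in the level of Cd36 was not tested. Cd36 rose by 2.01 in VR versus R (adjusted p = 0.0241), a call lost without R tumor 1 or 4 or VR tumor 1, 2 or 4, with its difference between 1.71 and 2.38. Cpt1a, which controls fatty acid entry into mitochondria, read 10.24, 10.82, 10.04 and 10.65 in R tumors, against 11.05, 11.08, 10.56 and 10.45 in the VdR group and 11.36, 11.19, 11.21 and 10.95 in the VR group, again without overlap of VR and R, and rose by 0.74 (adjusted p = 0.0141). In VdR versus R 3 targets were called (11.1%, beside 9.38% of all genes), all higher. They were Hadhb by 0.38 (adjusted p = 0.012), Acadvl by 0.25 (adjusted p = 0.0188) and Slc25a20 by 0.29 (adjusted p = 0.0334). The call of Slc25a20 was lost without R tumor 1, 4 or 5 or VdR tumor 1 or 2 and that of Acadvl without R tumor 1 or VdR tumor 2, which left a count of 1 without R tumor 1 or VdR tumor 2. In VR versus VdR 0 of the targets was called (1 without VdR tumor 2), and the median was 0.0334.

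**Figure D4:**
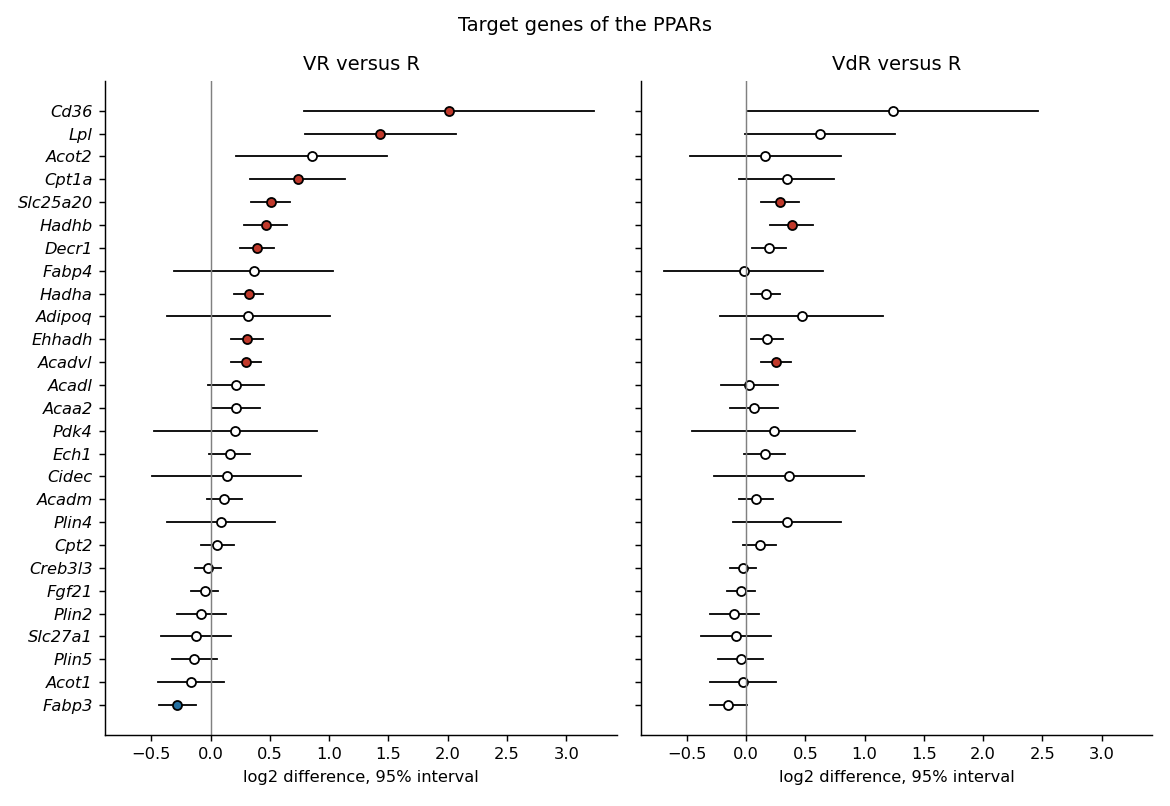
Log2 difference with its 95% interval for 27 target genes of the PPARs in VR versus R and VdR versus R, with filled points for calls by limma, red for higher and blue for lower. In VR versus R 9 genes are called higher, led by Cd36 at 2.01 and Lpl at 1.43, and 1 lower, and in VdR versus R 3 are called higher.

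Targets of PGC-1 and ERRα gave few calls. Of 18 tested, 2 were called in VR versus R (11.1%, beside 21.1% of all genes), with a median of 0.0593. Tfb1m, a methyltransferase of mitochondrial ribosomal RNA, rose by 0.49 (adjusted p = 0.0196) and the transcription factor Nrf1 fell by 0.20 (adjusted p = 0.042). The count was 0 without R tumor 1, R tumor 4 or VR tumor 5 and 1 without R tumor 2 or VR tumor 1, 2 or 4. In VdR versus R 1 of 18 was called (5.56%, beside 9.38% of all genes). It was Uqcrc1, a core subunit of complex III, higher by 0.25 (adjusted p = 0.00872). Without VdR tumor 5, 3 genes of the list were called. Tfam, the mitochondrial transcription factor, and the fusion protein Mfn2 were at 0.25 and 0.17 in VR versus R without a call (adjusted p = 0.212 and 0.139).

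Ucp2 was not analysed here, and its relatives are given instead. Of 7 uncoupling proteins and related mitochondrial carriers tested, 2 were called in VR versus R (28.6%, beside 21.1% of all genes). In VdR versus R 1 of 7 was called (14.3%, beside 9.38%), and in VR versus VdR 2 of 7 (28.6%, beside 3.44%). Slc25a30, a carrier of the uncoupling protein family, read 10.10, 10.06, 10.17 and 10.03 in R tumors, against 9.85, 9.89, 9.96 and 9.88 in the VdR group and 9.64, 9.53, 9.54 and 9.55 in the VR group. The 3 groups did not overlap, with R the highest and VR the lowest, and groups did not overlap for 14.2% of all genes in VdR versus R and 12.6% in VR versus VdR. It fell by 0.52 in VR versus R (adjusted p = 8.89e-05), by 0.20 in VdR versus R (adjusted p = 0.0282), and by 0.33 in VR versus VdR (adjusted p = 0.0118). The call in VdR versus R was lost without R tumor 1 or 4 or VdR tumor 1, 2 or 5. The adenine nucleotide carrier Slc25a4 rose by 0.21 in VR versus R (adjusted p = 0.0459), a call lost without R tumor 1, 2 or 4, VdR tumor 1 or 5, or any VR tumor. Slc25a27 rose by 0.34 in VR versus VdR (adjusted p = 0.0471), a call lost without R tumor 1 or 4, any VdR tumor, or VR tumor 2, 4 or 5, with its difference between 0.28 and 0.40. In VR versus R Slc25a27 was at 0.12 and Slc25a5, an adenine nucleotide carrier, at 0.10 without a call (adjusted p = 0.340 and 0.246).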

How the data were processed

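RNA of 12 tumors was hybridised to Affymetrix mouse gene arrays. Per the labels, the authors normalized them with RMA in oligo, versions not given in the sources used here, so the deposited unit is log2 expression, 1 value for a probeset and tumor. RMA puts all arrays on 1 distribution and hides any overall change in RNA content. The labels speak both of tumors and of sorted cells, while the paper states that RNA of whole tumor extracts was profiled. Of 35556 probesets, 21789 carried 1 gene symbol in the platform annotation, 1621 several and 12146 none, and those with 1 were named. Genes above 5.382, the 25th percentile, in at least 4 arrays were tested in R 4.3.3 with limma 3.58.1 (lmFit, eBayes, 1 coefficient per group, all 12 arrays), adjusted by Benjamini-Hochberg. The genes and lists were chosen with earlier results of these data known. Named from each list were up to 4 called genes with the lowest adjusted p per comparison and, in VR versus R, 2 uncalled genes with the largest difference. Cd36, Cpt1a, Acadvl, Ehhadh, Ncoa2 and Fabp3 in VR versus R fell outside that rule and were chosen after their values were seen. Sequences are RefSeq's for GRCm38.p6. Alternatives changed the filter, probeset rule, scaling, variance model, block, test and tumors left out.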

Additional observations from a re-analysis of the deposited data

Results flagged for a closer look

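Among 132 sets of 1 gene in 1 group of 4 tumors, 7 had a tumor far from the other 3, where the gap to the nearest tumor, divided by the whole range of the group, passed Dixon's critical value. About 1 in 20 sets does so by chance, so this number gives no pattern. None was one of the 8 genes of the set. Among the VdR tumors, tumor 4 was high for the vitamin D receptor Vdr (9.014 against the nearest 8.324, ratio 0.926) and for Ero1a (10.91 against 10.19, ratio 0.834). VdR tumor 5 was low for Ncoa1 (8.258 against 8.593, ratio 0.839) and for Sel1l (9.99 against 10.2, ratio 0.877). VR tumor 2 was low for Angptl7 (7.108 against 7.889, ratio 0.913), and VR tumor 5 was high for Slc2a1 (10.96 against 10.67, ratio 0.981). R tumor 5 was low for Pfkfb3 (7.393 against 8.051, ratio 0.887).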

How the results depend on the processing

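Of the 8 genes, 1 was called in VR versus R, and the count was 0 with a filter at the median of all values, the mean of probesets, median centring, an ordinary t-test per gene, a required change of at least 1.5-fold and a fit to only the groups compared. The paper names no test of single genes for the arrays, so this t-test is not the authors' own. It was 3 with array weights (Ppara and Angptl4 added), 2 with the tumor number as replicate block (Angptl4 added, adjusted p = 0.00799) and 0 to 2 with 1 tumor left out. Ppargc1a was not tested under the first 2 of these, since it was then below the filter, and elsewhere its adjusted p lay at 0.0501 or above where the call was lost. In VdR versus R the count was 1 with array weights (Ppard, -0.36), and in VR versus VdR it stayed 0 under all 24 alternatives. Deviations from the group means, over all genes tested, were correlated between tumors of different groups. Same-numbered tumors correlated at -0.151 to 0.398 (median 0.141), others at -0.482 to 0.323 (median -0.0669). The same-numbered pairs had the higher median, but not every one was above 0.1, the limit set here. The numbers were therefore not taken to pair the tumors, and whether same-numbered tumors share a source was not tested. Small differences changed sign. Esrra was 0.031 without VR tumor 2 in VR versus R, -0.011 with cyclic loess, -0.0014 with median centring and -0.0098 without VdR tumor 4 in VdR versus R, and 0.0086 without VR tumor 2 in VR versus VdR (-0.16 to 0.0086 over the tumors left out). Pparg in VdR versus R was -0.026 with array weights, -0.018 with cyclic loess, -0.024 with median centring, and -0.14 to -0.027 without R tumor 1, VdR tumor 1 or VdR tumor 2 (-0.044), and as high as 0.14 without VdR tumor 5. Ppargc1b in VR versus VdR was 0.030 with array weights, 0.021 with cyclic loess, 0.0096 with median centring, 0.075 without VdR tumor 1 and 0.069 without VR tumor 2 (lowest -0.047). Over all genes, 3500, 1555 and 570 calls in VR versus R, VdR versus R and VR versus VdR became 5667, 2595 and 884 with array weights, 76, 43 and 0 with the minimum change and 2120, 493 and 30 with the ordinary t-test. With 1 tumor left out they fell as low as 961 in VdR versus R and 86 in VR versus VdR. Of the calls in VdR versus R 70.1% were higher, and 59% with cyclic loess, and of those in VR versus VdR 51.4%, and 62.7% with median centring. Lists moved too. With the ordinary t-test 3 coactivators were called in VR versus R. Hypoxia-induced genes called in VdR versus R were 0 with that test and 12 with array weights. By the t-test Cpt1a (adjusted p = 0.0631) and Cd36 (0.0538) lost their calls in VR versus R. Hadhb (0.112), Kdm3a (0.0788) and Ankrd37 (0.112) lost theirs in VdR versus R. With the minimum change 0 coactivators, PPAR targets or hypoxia-induced genes were called in these comparisons. The causes were not tested. Values near 5.382 are near the low end of the array, which limits Ppara and Ppargc1a. The same holds for other genes named with low values, such as Thrb, Ehhadh and Esrrb (means of 5.89, 5.89 and 5.72).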

Other observations

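Deviations of the 12 tumors from their group means were compared between genes of the set, as a description without a test, since all values of a tumor share 1 array. Pparg and Angptl4 had the highest Pearson correlation among the pairs at 0.723, followed by Ppargc1b and Esrra at 0.699, Ppargc1a and Ppargc1b at 0.651 and Ppara and Ppard at 0.605. Ppard and Angptl4 were opposed at -0.599. With the mean of the hypoxia-induced genes, Ppard correlated at 0.723, Ppara at 0.551, Ppargc1a at 0.448, Pparg at -0.407 and Angptl4 at -0.306. With the macrophage markers Ppargc1b correlated at -0.727, Ppara at -0.66 and Angptl4 at 0.504. With the adipocyte markers Pparg correlated at 0.616 and Angptl4 at 0.549, so Angptl4 stood much alike with both lists. Adipoq, Cidec and Fabp4 are in the list of adipocyte markers and in that of the PPAR targets. The genes most like Ppargc1a by this measure were 4921536K21Rik (0.934), Orai2, a subunit of calcium entry channels (0.927), and Rdm1 (0.905). They were picked as the highest over all genes tested, with only 12 tumors, and Ppargc1a is near the low end of the array. No relation between these genes is drawn from the values.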
